A study of Mus musculus with 8 samples.

Results

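The genes described here are the matrix metalloproteinases (Mmp), the tissue inhibitors of metalloproteinases (Timp) and the ADAMTS proteases (Adamts) of cells labelled C2C12, a line of wild-type immortalized mouse myoblasts. They were chosen by symbol alone, as every gene of both deposited tables named Mmp, Timp or Adamts with a number, which gave 46 of 52139 shared genes: 23 Mmp, 4 Timp and 19 Adamts. RNA sequencing libraries of 4 groups were used: 3 libraries of cells given ginsenoside Re, a saponin of ginseng, with 3 libraries of cells given DMSO, a solvent, in the same table, and, in a separate table, 1 library after ginseng berries concentrate (GBC) and 1 DMSO library. Doses, treatment times and the origin of the replicates are not given in the labels, so p-values measure only the spread between these libraries, which may be technical. By its title the series asks how expression profiles change with GBC and with Re. Its text names myocytes, where the labels of the libraries name myoblasts.

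Matrix metalloproteinases are zinc enzymes that cut collagens, proteoglycans and other proteins outside the cell. Most are secreted as inactive precursors, a few sit in the plasma membrane, and TIMP proteins block the active enzymes by binding their catalytic site. ADAMTS proteases are secreted relatives that trim procollagens and cut proteoglycans. In muscle these enzymes are known for remodelling the matrix around fibres and for the migration and fusion of myoblasts.

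The tables list log2(TPM + 1), where TPM is a transcript abundance scaled for gene length and for the total of the library. Levels are given here in TPM. Differences are on the log2(TPM + 1) scale, and that scale understates changes in genes with low levels. Read depth is unknown, since TPM does not keep it. The listed TPM summed to 704657 to 743269 in the Re libraries and 642180 to 716589 in their DMSO libraries, and to 479938 in the GBC library and 403442 in its DMSO library. The 2 tables did not carry the same marker genes. Of 10 myoblast markers, 7 averaged 1 TPM or more in the Re table, where Myod1, the muscle determination factor, ran from 9.95 to 13.6 TPM in Re libraries and from 11.9 to 12.6 TPM in DMSO libraries. In the GBC pair 2 of the 10 did, and Myod1, Myf5 and Cdh15 were listed at 0 in both libraries, against the label. Pax7, Msc and Myog were also at 0 there, but they did not exceed 0.30 TPM in the Re table either. Des, the muscle intermediate filament desmin, was at 1.59 TPM in the GBC library and 1.92 TPM in its DMSO library, while the Re table held 114.9 to 123.4 TPM in Re and 116.1 to 127.4 TPM in DMSO. Thy1, a fibroblast marker, was at 22.1 TPM in the GBC library and 23.8 TPM in its DMSO library, and at no more than 0.08 TPM in any library of the Re table. The other fibroblast markers did not all share that order: Col3a1 was at 39.3 TPM in the GBC library and 19.8 TPM in its DMSO library, and ran from 224.7 to 271.2 TPM in Re and from 177.8 to 266.3 TPM in DMSO in the Re table. The sum of the 8 fibroblast markers was 140.1 TPM in GBC and 78.95 TPM in its DMSO library, and 269.5 to 311.5 TPM in Re and 213.8 to 311.6 TPM in DMSO. Results are therefore kept apart by table, and a level compared across them is a description only.

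Most of these genes were low or listed at 0. At a minimum mean of 1 TPM, 17 of the 46 members passed in the Re table, namely 7 Mmp, 3 Timp and 7 Adamts, and 12 passed in the GBC pair, namely 4 Mmp, 3 Timp and 5 Adamts. Of these, 10 passed in both tables, and 27 members passed in neither. Among these 27, 8 were listed at 0 in each of the 8 libraries: Mmp1a, Mmp1b, Mmp7, Mmp20, Mmp27, Adamts13, Adamts15 and Adamts18. Of the other 19, Mmp25, Adamts8, Adamts9, Mmp21, Adamts20, Adamts19, Mmp8 and Timp4 reached at most 0.07 TPM in any library, Adamts17, Mmp17, Adamts16, Mmp13, Adamts3, Mmp12 and Mmp3 at most 0.46 TPM, and Mmp10, Mmp24, Mmp9 and Mmp23 at most 0.53, 0.54, 0.75 and 1.49 TPM in that order.

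The inhibitors were the most abundant members in the Re table. Timp1, a soluble inhibitor of most secreted metalloproteinases, was at 357, 358 and 359 TPM in the Re libraries, against 362, 279.5 and 339.6 TPM in the DMSO libraries. The Re values lay close together, with an SD of 0.764 TPM (n = 3) against 42.7 TPM in DMSO (n = 3), and all 3 fell inside the DMSO range. The difference was 0.14, with a 95% interval of -0.11 to 0.39 and an adjusted p of 0.693 in limma, a linear model fitted over all genes of the table. In bulk RNA a change in the share of cells that express a gene and a change in RNA per cell cannot be told apart. Timp2, which inhibits metalloproteinases and also bridges the precursor of Mmp2 to Mmp14 at the cell surface, was at 198, 229 and 207.8 TPM in Re and 201.4, 196 and 204.5 TPM in DMSO. Its groups overlapped, and the difference was 0.07 (-0.12 to 0.27, adjusted p 0.767 in limma). Timp3, an inhibitor bound to the matrix that also blocks some ADAM and ADAMTS enzymes, was at 189, 193 and 222 TPM in Re and 217, 165.5 and 203 TPM in DMSO. Its groups overlapped too, with a difference of 0.05 (-0.23 to 0.33, adjusted p 0.895 in limma). Timp4, the inhibitor best known from heart, reached at most 0.07 TPM.

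The shares of the inhibitor transcripts are the same whatever single factor a library is scaled by. Timp1 held 48.0%, 45.9% and 45.5% of the summed Timp TPM in the Re libraries and 46.4%, 43.6% and 45.4% in the DMSO libraries. Timp2 held 26.4% to 29.4% in Re and 25.8% to 30.6% in DMSO, and Timp3 held 24.7% to 28.2% in Re and 25.8% to 27.8% in DMSO. The 3 shares overlapped between the groups. In the GBC pair Timp2 was the leading inhibitor, with 53.2% of the Timp TPM in the GBC library and 53.4% in the DMSO library. Timp1 there held 21.5% in GBC and 24.8% in DMSO, and Timp3 25.3% in GBC and 21.8% in DMSO.

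**Figure D1:**
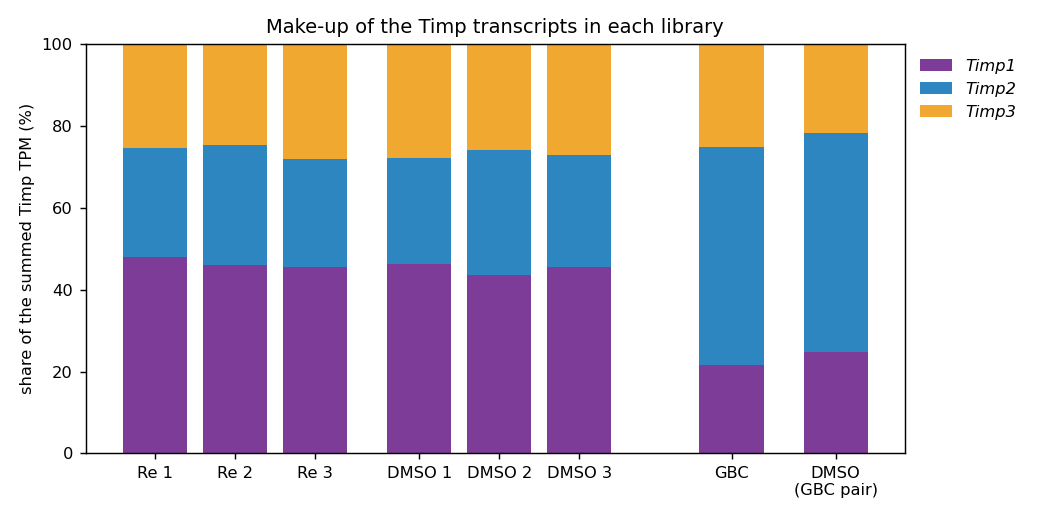
Share of the summed Timp TPM held by Timp1, Timp2 and Timp3 (vertical axis, percent) in each of the 8 libraries, with Timp4, at no more than 0.07 TPM, not drawn. Timp1 holds 45.5% to 48.0% in Re and 43.6% to 46.4% in the DMSO libraries beside it, and 21.5% and 24.8% in the GBC and DMSO libraries of the pair, where Timp2 holds 53.2% and 53.4%.

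Among the enzymes, 3 genes carried most of the transcripts. Mmp14, the membrane-bound enzyme that activates the Mmp2 precursor, Mmp2, the gelatinase that cuts type IV and denatured collagen, and Mmp11, a stromelysin activated inside the cell by furin, together held 91.1% to 93.8% of the summed Mmp TPM in Re libraries and 92.4% to 92.8% in DMSO libraries. Mmp14 was at 63.7, 71.5 and 80.3 TPM in Re and 74.1, 62.9 and 75.4 TPM in DMSO, so the groups overlapped. The difference was 0.02 as deposited and -0.09 after median-of-ratios scaling, with an interval of -0.25 to 0.29 as deposited and an adjusted p of 0.957 in limma. Mmp2 was at 42.0, 41.9 and 50.0 TPM in Re and 46.3, 38.9 and 44.2 TPM in DMSO, also with overlap. Its difference was 0.05 (-0.21 to 0.30, adjusted p 0.884 in limma). Mmp11 was at 22.1, 29.3 and 26.6 TPM in Re and 29.0, 20.4 and 21.8 TPM in DMSO, again with overlap. Its difference was 0.13 (-0.23 to 0.49, adjusted p 0.771 in limma). The exons of Mmp11 overlap Chchd10 on the other strand, which reached 6.68 TPM.

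Ratios within a library show the balance of enzyme to inhibitor transcripts. The summed Mmp TPM was 0.189, 0.1997 and 0.212 of the summed Timp TPM in the Re libraries and 0.206, 0.206 and 0.204 in the DMSO libraries. The Re values lay on both sides of the DMSO values. Mmp14 over Timp2 was 0.322, 0.312 and 0.386 in Re and 0.368, 0.321 and 0.369 in DMSO. Mmp2 over Timp2 was 0.213, 0.183 and 0.241 in Re and 0.230, 0.198 and 0.216 in DMSO. Both ratios overlapped between the groups.

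The remaining Mmp genes of the Re table were low. Mmp28, the secreted enzyme epilysin, was at 1.38, 2.14 and 1.35 TPM in Re and 1.19, 0.71 and 1.31 TPM in DMSO. It was the 1 tested member of 17 whose Re libraries all lay above its DMSO libraries, while 13.7% of all genes tested showed that order, 1.27% the opposite one and 15.0% either. The gap between its lowest Re and highest DMSO library was small beside the spread within each group, and its difference of 0.34 (-0.16 to 0.84) had an adjusted p of 0.687 in limma. The exons of Mmp28 overlap those of a gene on the other strand, 1700020L24Rik, which reached 3.14 TPM in this table, and the counting is not stated to use strand, so reads of the pair may not be told apart. Mmp16, a membrane-type enzyme, was at 2.93, 2.53 and 2.26 TPM in Re and 1.76, 1.60 and 2.50 TPM in DMSO. DMSO replicate 3 lay above the lowest Re library, and the difference was 0.28 (-0.13 to 0.70, adjusted p 0.687 in limma). Mmp15, also membrane-type, was at 3.69, 4.36 and 3.62 TPM in Re and 3.92, 3.46 and 3.52 TPM in DMSO, a difference of 0.08. Mmp19, a secreted enzyme whose exons overlap Tmem198b on the other strand, was at 1.63, 1.59 and 1.34 TPM in Re and 1.29, 1.54 and 1.81 TPM in DMSO, a difference of -0.01. Both overlapped between the groups. Mmp23 lay just under the minimum with a mean of 0.997 TPM, at 0.93, 0.97 and 0.56 TPM in Re and 1.49, 1.12 and 0.91 TPM in DMSO. It was tested in the fit with no filter on low values, where its difference was -0.26 (-0.67 to 0.16, adjusted p 0.774 in limma). Mmp9, the other gelatinase, was at 0.35, 0.34 and 0.13 TPM in Re and 0.14, 0.75 and 0.12 TPM in DMSO, where DMSO replicate 2 alone was above 0.35 TPM.

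The ADAMTS genes lay below the main Mmp genes. Adamts1, which cuts the proteoglycan versican, was at 8.17, 7.04 and 8.35 TPM in Re and 7.96, 7.99 and 7.2 TPM in DMSO, a difference of 0.02. Adamts4 and Adamts5 are the enzymes best known for cutting aggrecan. Adamts4 was at 4.51, 4.85 and 5.41 TPM in Re and 4.92, 4.0 and 5.29 TPM in DMSO, a difference of 0.05. Adamts5 was at 0.84, 1.16 and 0.97 TPM in Re and 1.08, 1.08 and 1.2 TPM in DMSO, with the lowest difference of the tested members at -0.09 (-0.52 to 0.33, adjusted p 0.859 in limma). Adamts10 and Adamts6 are related enzymes, of which Adamts10 is tied to fibrillin microfibrils. Adamts10 was at 6.30, 8.31 and 7.91 TPM in Re and 5.62, 5.65 and 9.0 TPM in DMSO, a difference of 0.15 with DMSO replicate 3 above all Re libraries. Adamts6 was at 4.51, 5.23 and 4.29 TPM in Re and 4.21, 5.72 and 3.94 TPM in DMSO, a difference of 0.02. Adamts7, which cuts cartilage oligomeric matrix protein and whose exons overlap Tbc1d2b on the other strand, was at 4.90, 4.58 and 6.87 TPM in Re and 5.60, 4.47 and 4.94 TPM in DMSO, a difference of 0.09. Its Re replicate 3 stood above the other 5 libraries. Adamts14, which removes the amino-terminal propeptide of procollagens, was at 2.51, 2.28 and 2.96 TPM in Re and 2.82, 2.72 and 2.39 TPM in DMSO, a difference of -0.03. These 7 genes overlapped between the groups.

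**Figure D2:**
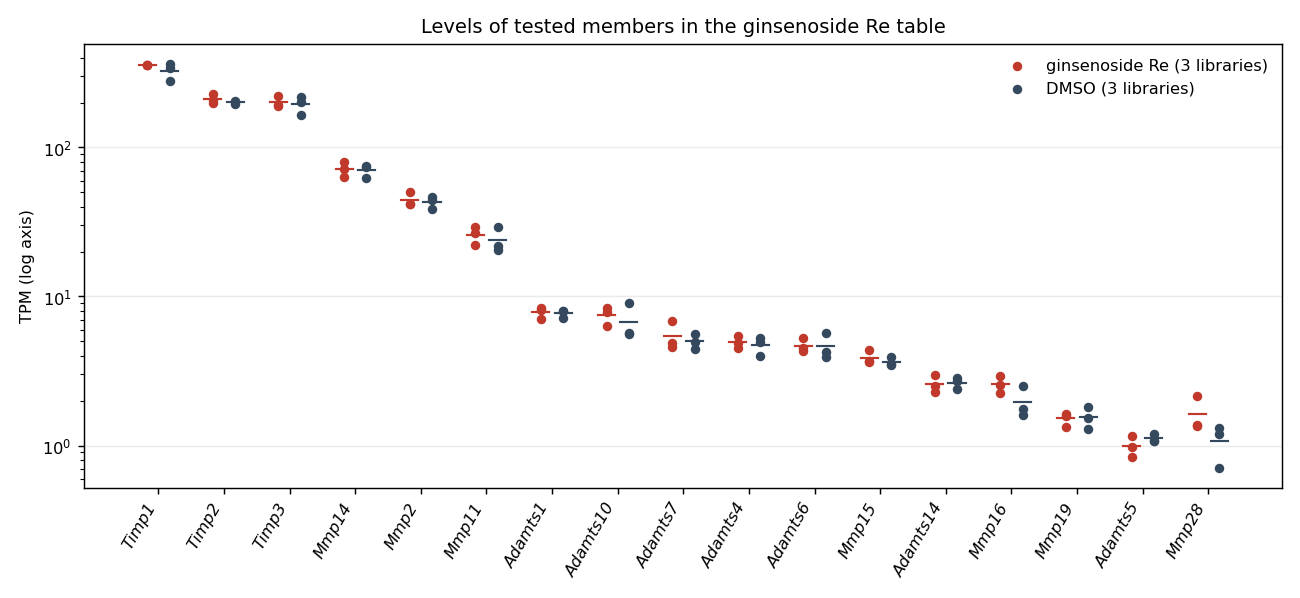
Level in TPM (vertical log axis) of the 17 members that average 1 TPM or more in the Re table, with 1 point per library and a line at the mean, Re left of DMSO for each gene. The 3 Timp genes lie highest, at 165.5 to 362 TPM, then Mmp14, Mmp2 and Mmp11, and the Re and DMSO points overlap for 16 of the 17 genes, Mmp28 being the exception.

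No member passed the test between Re and DMSO. Of 11967 genes that averaged 1 TPM or more over the 6 libraries, limma called 0, or 0.0%, at an adjusted p of 0.05, and it called 0 of 17 members. The unadjusted p fell under 0.05 for 745 genes, or 6.23%, and for 0 members. Fits without the trend and with robust variances made 0 calls too, with 732 and 728 genes at that unadjusted p. Adjusted p-values of the members ran from 0.687 to 0.982 in limma. The 95% intervals reached 0.197, for Timp2, to 0.496, for Mmp28, to either side, with a median of 0.36 over members and 0.31 over all genes tested. Differences smaller than these could not be told from none. The intervals are not adjusted for the number of genes tested, so somewhat larger differences could also go uncalled.

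The direction of the small differences depended on the scaling of the libraries. As deposited, 14 of 17 members had a positive difference, beside 77.5% of all genes, while 5 of 17 did after median-of-ratios scaling and 5 of 17 after quantile normalization. The median difference was 0.05 over members and 0.11 over all genes as deposited, and -0.04 over members and 0.0005 over all genes after median-of-ratios scaling. Timp2, Timp3, Mmp2, Mmp14, Mmp15, Adamts1, Adamts4, Adamts6 and Adamts7 were positive as deposited and negative after that scaling. By family the medians as deposited were 0.08 for 7 Mmp, 0.07 for 3 Timp and 0.02 for 7 Adamts. Without DMSO replicate 2, 10 of 17 were positive, and without Re replicate 3, 9 of 17 were. DMSO replicate 2 had the lowest listed TPM sum, 642180, and the lowest value of the 6 for 11 of the 17 members. The part of its sum in these values was not tested.

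**Figure D3:**
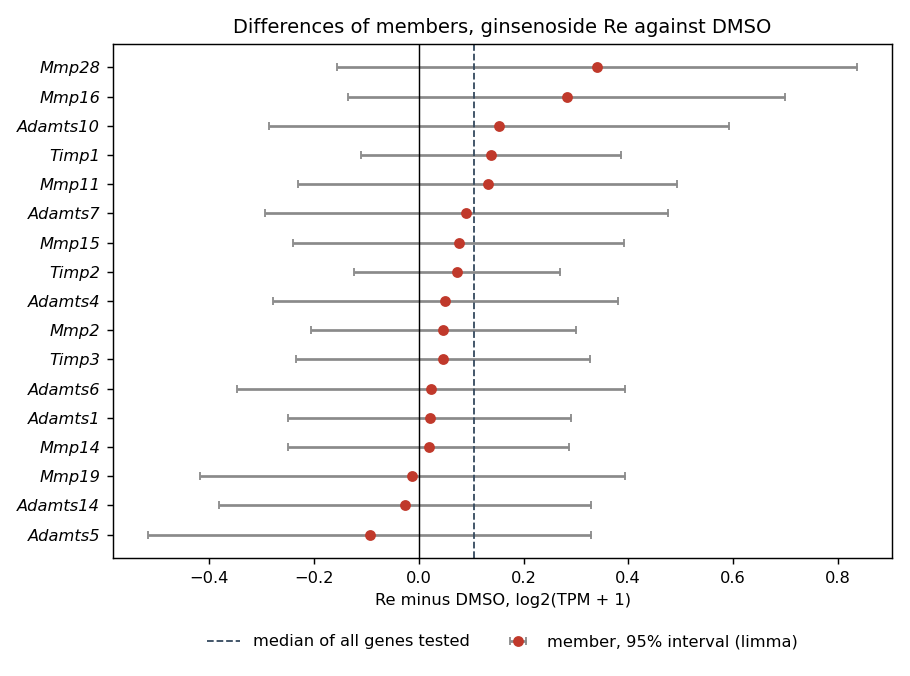
Difference between Re and DMSO on the log2(TPM + 1) scale (horizontal axis) for the 17 members tested, with 95% intervals from limma and the median of all genes, 0.11, as a dashed line. Each interval crosses 0. Mmp28 has the highest difference at 0.34 and Adamts5 the lowest at -0.09, and after median-of-ratios scaling 12 of the 17 lie below 0.

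The members at or near 0 included a gene cluster. In the RefSeq gene order 10 Mmp genes lie side by side on chromosome 9, with no other protein-coding gene between them: Mmp13, Mmp12, Mmp1b, Mmp3, Mmp1a, Mmp10, Mmp8, Mmp27, Mmp20 and Mmp7. They include the collagenases Mmp1a, Mmp1b, Mmp8 and Mmp13, the stromelysins Mmp3 and Mmp10, the matrilysin Mmp7 and the macrophage elastase Mmp12. None of the 10 exceeded 0.53 TPM in any library. Mmp10 was highest, at 0.53, 0.33 and 0.32 TPM in Re and 0.48, 0.50 and 0.11 TPM in DMSO, and was listed at 0 in the GBC pair. Mmp3 was at 0.33, 0.38 and 0 TPM in Re and 0.46, 0.12 and 0.33 TPM in DMSO. Mmp13 was at 0.07, 0.16 and 0.30 TPM in Re and 0.04, 0.16 and 0.07 TPM in DMSO. Mmp1a and Mmp1b are near copies, so reads could be shared between them, but both were listed at 0 throughout. At such levels no difference was detectable, and a value of 0 without known depth does not show absence.

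The promoters of the cluster genes were read for letters that they share. RefSeq promoter sequences on GRCm38.p6 were found for 32 of the 46 members. The 100 bases before the start of 5 cluster genes are shown because both motifs lie inside them, written 5′ to 3′ on the gene's strand, with the AP-1 motif TGANTCA and the TATA box TATAAA in capitals.
Mmp13 (chr9:7272414-7272513, plus strand): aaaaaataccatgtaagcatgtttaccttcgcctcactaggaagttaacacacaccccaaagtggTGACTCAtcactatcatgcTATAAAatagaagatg
Mmp3 (chr9:7445722-7445821, plus strand): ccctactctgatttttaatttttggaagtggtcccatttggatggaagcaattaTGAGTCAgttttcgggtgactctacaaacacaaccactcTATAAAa
Mmp10 (chr9:7502242-7502341, plus strand): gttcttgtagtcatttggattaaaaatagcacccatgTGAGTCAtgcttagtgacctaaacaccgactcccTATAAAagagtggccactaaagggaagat
Mmp1a (chr9:7464041-7464140, plus strand): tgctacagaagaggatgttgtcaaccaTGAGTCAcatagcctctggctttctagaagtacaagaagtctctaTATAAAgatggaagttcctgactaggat
Mmp1b (chr9:7388027-7388126, minus strand): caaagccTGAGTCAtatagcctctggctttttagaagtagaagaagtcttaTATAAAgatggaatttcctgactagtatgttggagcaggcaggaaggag
For comparison, the same stretch of 5 abundant members holds neither motif and no capitals.
Timp1 (chrX:20870066-20870165, plus strand): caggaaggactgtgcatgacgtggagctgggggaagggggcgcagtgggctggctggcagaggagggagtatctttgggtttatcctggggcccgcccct
Timp2 (chr11:118355412-118355511, minus strand): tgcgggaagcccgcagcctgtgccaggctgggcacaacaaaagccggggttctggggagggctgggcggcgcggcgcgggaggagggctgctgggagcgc
Timp3 (chr10:86300312-86300411, plus strand): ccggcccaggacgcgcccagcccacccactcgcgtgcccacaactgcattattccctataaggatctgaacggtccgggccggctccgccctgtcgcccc
Mmp14 (chr14:54431498-54431597, plus strand): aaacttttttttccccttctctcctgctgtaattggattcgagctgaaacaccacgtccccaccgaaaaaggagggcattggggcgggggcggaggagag
Mmp11 (chr10:75932503-75932602, minus strand): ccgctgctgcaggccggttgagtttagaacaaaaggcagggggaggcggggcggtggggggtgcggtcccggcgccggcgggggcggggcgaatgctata
In the printed stretches the AP-1 motif begins at position -35 in Mmp13, -46 in Mmp3, -63 in Mmp10, -73 in Mmp1a and -93 in Mmp1b, counted back from the start, and the TATA box begins nearer to it, at -16, -7, -29, -28 and -49 in the same order.

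Over the 250 bases before the start, on both strands (the AP-1 motif reads the same on both, and the TATA box is TTTATA on the other), 8 of the 10 cluster genes held the AP-1 motif, 7 held the TATA box and 7 held both. Of all 32851 RefSeq promoter windows, 6.75% held the AP-1 motif, 12.4% the TATA box and 1.21% both. Those shares are per window, while a member counted if any of its windows held the motif, and its G and C share was averaged over its windows. Mmp7, Mmp12 and Mmp23 had an additional window each. Of the 22 matched members outside the cluster, 0 held the AP-1 motif and 2 the TATA box. These 22 include 11 that were likewise under 1 TPM in both tables. G and C made up 40.4% of the bases at the median of the cluster genes, 64.4% at the median of the other members and 52.4% at the median of all windows. A motif match describes these letters only.

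**Figure D4:**
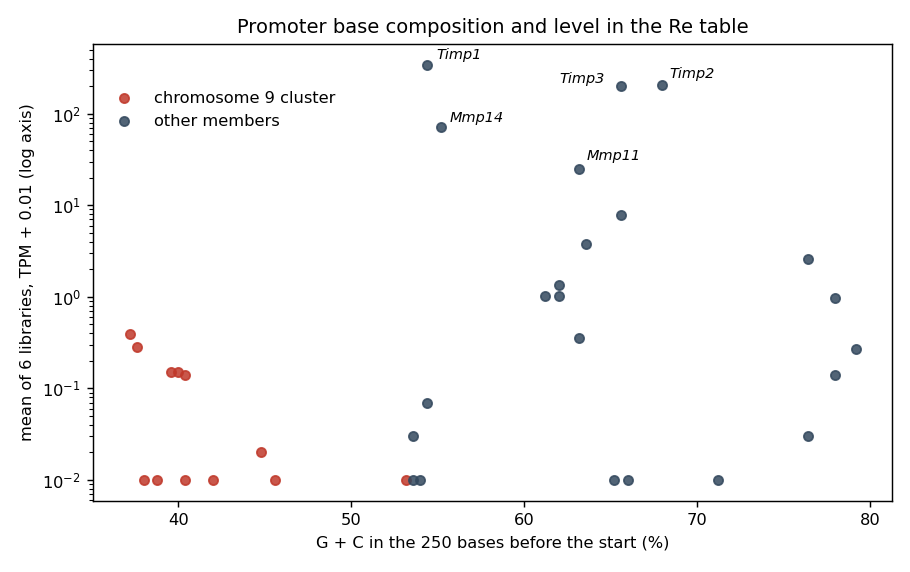
Share of G and C in the 250 bases before the start (horizontal axis, percent) against the mean level over the 6 libraries of the Re table (vertical log axis, TPM with 0.01 added), 1 point per promoter window. The windows of the chromosome 9 cluster lie at 37.2% to 53.2% and under 1 TPM, while other members lie at 53.6% to 79.2% and span the full range of levels.

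In the GBC pair there was 1 library per group, so no test was made and the differences have no replicate check. Genes were called by size where they averaged 5 TPM or more and differed by 1 or more in either direction. Of the members 0 of 7 were called, beside 5.21% of all genes, and 4.97% of all genes were called as higher in GBC. With a minimum of 1 TPM 0 of 12 members were called, beside 4.75% of all genes. Timp2 was at 128 TPM in the GBC library and 114 TPM in the DMSO library, a difference of 0.17 as deposited and -0.30 after median-of-ratios scaling. Timp3 was at 60.9 TPM in GBC and 46.5 TPM in DMSO, a difference of 0.38 as deposited and -0.08 after that scaling. Timp1 was the 1 member of 12 that was lower in GBC as deposited, at 51.9 TPM in GBC and 53.1 TPM in DMSO, a difference of -0.03, or -0.49 after median-of-ratios scaling.

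Mmp2 was the leading enzyme of the pair, at 61.1 TPM in GBC and 45.2 TPM in DMSO, a difference of 0.43 as deposited and -0.035 after median-of-ratios scaling. Mmp14 was at 15.5 TPM in GBC and 11.3 TPM in DMSO, a difference of 0.42 as deposited and -0.015 after that scaling. Mmp11 was at 5.31 TPM in GBC and 5.24 TPM in DMSO, a difference of 0.02 as deposited and -0.38 after that scaling. Mmp19 was at 2.14 TPM in GBC and 1.52 TPM in DMSO, a difference of 0.32. Mmp2 lay above Mmp14 in both libraries of the pair and below it in every library of the Re table. Mmp2 over Timp2 was 0.476 in GBC and 0.396 in DMSO, Mmp14 over Timp2 was 0.121 in GBC and 0.0992 in DMSO, and the summed Mmp TPM over the summed Timp TPM was 0.353 in GBC and 0.299 in DMSO. Each of these 3 within-library ratios was higher in the GBC library, but they share genes and are not separate observations. Among the 3 Re libraries of the other table, Mmp2 over Timp2 ran from 0.183 to 0.241 and Mmp14 over Timp2 from 0.312 to 0.386. The summed ratio ran from 0.189 to 0.212 there. The spread between libraries of the pair is unknown.

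Among the ADAMTS genes of the pair, Adamts7 had the largest difference of the members, 0.80, at 1.67 TPM in GBC and 0.53 TPM in DMSO, a mean of 1.10 TPM and thus below the size rule. Its difference was 1.49 with a pseudocount of 0.1 TPM. Its exons overlap those of Tbc1d2b on the other strand, which reached 4.06 TPM in the pair. Adamts10 was at 7.36 TPM in GBC and 4.86 TPM in DMSO, a difference of 0.51, and Adamts1 at 2.05 TPM in GBC and 1.43 TPM in DMSO, a difference of 0.33. Adamts12, which like Adamts7 cuts cartilage oligomeric matrix protein, was at 3.05 TPM in GBC and 1.91 TPM in DMSO, a difference of 0.48. Adamts2, the main procollagen N-proteinase, was at 1.96 TPM in GBC and 1.83 TPM in DMSO, a difference of 0.06 as deposited and -0.24 after median-of-ratios scaling. After that scaling the differences of Adamts7, Adamts12, Adamts10, Adamts1 and Mmp19 were 0.575, 0.145, 0.111, 0.032 and 0.015 in that order. Adamts12 and Adamts2 passed the minimum in this pair and not in the Re table, where Adamts12 ran from 0.31 to 0.33 TPM in Re and 0.30 to 0.45 TPM in DMSO, and Adamts2 from 0.90 to 1.04 TPM in Re and 0.82 to 1.02 TPM in DMSO.

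As deposited 11 of 12 members were higher in GBC, beside 88.8% of all genes at that minimum, while 5 of 12 were higher after median-of-ratios scaling. The median difference was 0.35 over the members and 0.32 over all genes as deposited, and -0.02 over members and -0.07 over all genes after that scaling. The summed level of 8 fibroblast markers was 140.1 TPM in the GBC library and 78.95 TPM in the DMSO library, with Col1a1 at 46.6 TPM in GBC and 10.9 TPM in DMSO, and its part in these differences was not tested. Macrophage, endothelial, epithelial and neutrophil marker sums were 3.75, 0.55, 2.30 and 0 TPM in GBC and 2.68, 0.15, 2.08 and 0 TPM in DMSO.

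**Figure D5:**
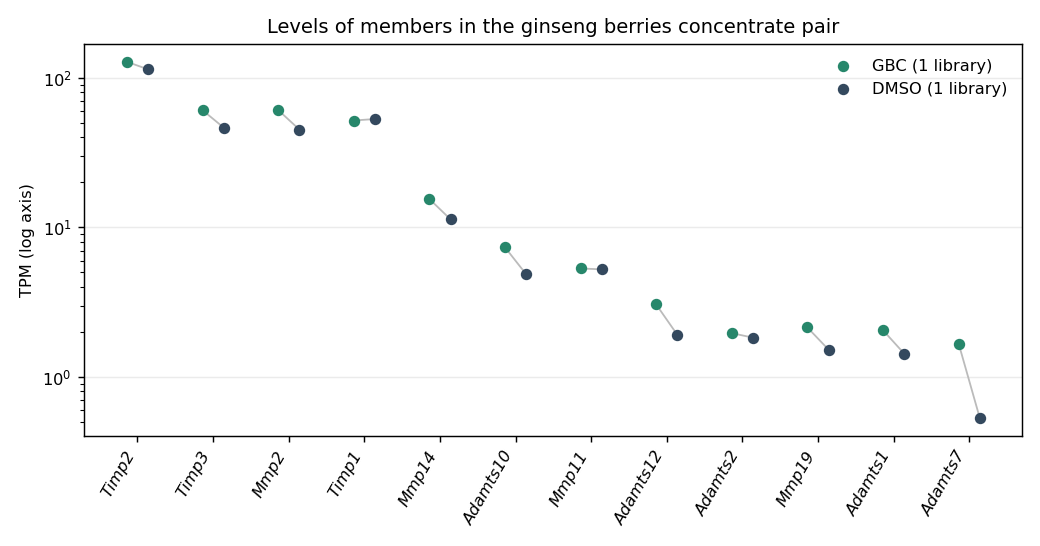
Level in TPM (vertical log axis) of the 12 members that average 1 TPM or more in the GBC pair, with the GBC library left of the DMSO library for each gene. Timp1 alone is lower in GBC as deposited, at 51.9 TPM in GBC and 53.1 TPM in DMSO, and Adamts7 has the steepest line, at 1.67 TPM in GBC and 0.53 TPM in DMSO, while 7 of the 12 are lower in GBC after median-of-ratios scaling.

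Several members that passed the minimum in the Re table lay under it in the GBC pair. Mmp15 and Mmp16 were listed at 0 in both libraries of the GBC pair. Adamts4, Adamts6 and Adamts14 were at no more than 0.47, 0.27 and 0.70 TPM there. The members together made up 0.130% to 0.137% of the listed TPM in Re libraries and 0.126% to 0.136% in their DMSO libraries, and 0.0717% in the GBC library and 0.0718% in its DMSO library.

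Genes that activate or restrain these enzymes showed no called difference between Re and DMSO either. Of 20 listed genes of activation and control 12 were tested, with 0 called in limma and 0 at an unadjusted p under 0.05, 8 of 12 with a positive difference as deposited and 5 of 12 after median-of-ratios scaling, and a median of 0.09 as deposited and -0.01 after that scaling. Bsg, which induces metalloproteinases in neighbouring cells, was at 324.8 ± 16.0 TPM in Re and 302.9 ± 33.3 TPM in DMSO (SD, n = 3 each). Plat, an activator that turns plasminogen into plasmin, was at 25.9 ± 1.37 TPM in Re and 23.7 ± 1.66 TPM in DMSO (SD, n = 3 each). Plaur, the receptor of Plau, was at 84.9 ± 8.23 TPM in Re and 91.3 ± 10.1 TPM in DMSO, and Rock1, a kinase of the actin cytoskeleton, at 30.9 ± 4.36 TPM in Re and 25.7 ± 2.48 TPM in DMSO (SD, n = 3 each). In the GBC pair 10 of 10 measured genes of that list were higher as deposited and 5 of 10 after median-of-ratios scaling, with a median of 0.35 as deposited and -0.08 after that scaling, and 0 of 8 past the size rule. Lrp1, a receptor that clears metalloproteinases, was at 16.3 TPM in GBC and 7.79 TPM in DMSO, a difference of 0.97 as deposited. This value falls just short of the size rule with 1 TPM added, and other pseudocounts were not tried for the list. The median over all genes of the pair as deposited was 0.32.

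The ADAM proteases, membrane-bound relatives that shed surface proteins, gave 8 tested genes of 10 in the Re table, with 0 called in limma, 4 of 8 with a positive difference as deposited and 2 of 8 after median-of-ratios scaling, and a median of -0.02 as deposited and -0.11 after that scaling. Adam17, the enzyme that releases tumour necrosis factor, was at 15.6 ± 1.12 TPM in Re and 13.8 ± 1.32 TPM in DMSO, and Adam12, a gene of fusing myoblasts, at 12.3 ± 1.21 TPM in Re and 13.8 ± 2.45 TPM in DMSO (SD, n = 3 each). Adam10, the main enzyme that sheds Notch, was at 14.8 ± 1.83 TPM in Re and 16.9 ± 2.60 TPM in DMSO (SD, n = 3 each). Its difference was -0.18 (95% interval -0.51 to 0.15). In the GBC pair 7 of 7 were higher as deposited and 5 of 7 after median-of-ratios scaling, with a median of 0.64 as deposited and 0.20 after that scaling, and 0 of 5 past the size rule. In this pair Adam10 was at 8.35 TPM in GBC and 3.98 TPM in DMSO, a difference of 0.91 as deposited. That lies just under the size rule on a scale that adds 1 TPM, and other pseudocounts were not tried for this list. Adam12 was at 4.17 TPM in GBC and 1.96 TPM in DMSO, a difference of 0.80 as deposited, beside 0.32 at the median of all genes. The ADAMTS-like proteins, which resemble ADAMTS enzymes without the protease domain, gave 3 tested genes of 7, with 0 called in limma. Adamtsl4 was at 3.18, 1.67 and 1.31 TPM in Re and 4.04, 2.87 and 1.98 TPM in DMSO, so that its groups overlapped, and its difference was -0.39 (95% interval -1.03 to 0.25).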

How the data were processed

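RNA sequencing values of 8 libraries were used. The labels' protocols name a Qiagen RNeasy kit for the RNA and an Illumina TruSeq kit for the libraries, and settings not given in the sources used here include strand and counting. The submitters' processing notes name STAR, RSEM and the builds GRCh38 and GRCm39, without versions or roles. The authors deposited log2 values, log2(TPM + 1) per Ensembl gene, in 2 tables that list 52338 and 52139 genes. Back-transformed values were multiples of 0.01 TPM within 2.0e-04 and were rounded to them. No depth can be recovered from TPM, so no count model was used.

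Re and DMSO were compared with limma 3.58.1 in R 4.3.3 (lmFit and eBayes with trend, two-sided) on log2(TPM + 1), over 11967 genes averaging 1 TPM or more across the 6 libraries, with Benjamini-Hochberg adjustment over all of them and a threshold of 0.05. The step was tried on simulated libraries with changes larger than the differences of the members and no shift common to all genes. That trial therefore does not bear on differences as small as those of the members. The GBC pair was described only. Ratios and shares were taken within a library. Other steps used Python 3.11.15, numpy 2.4.6, pandas 2.3.3 and matplotlib 3.10.9.

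Every member averaging 1 TPM or more in a table was named with its values, and up to 4 genes with the smallest p or the largest difference could be named from each further list. The members, lists and markers were chosen with earlier results of these data known. Members under that level were named in groups, and values per library of Mmp3, Mmp9, Mmp10, Mmp13, Mmp23 and Adamts16 were added after they were seen. Re libraries are numbered by their titles, since their descriptions number them otherwise. Overlapping exons were read from GENCODE M21 on GRCm38, another build than GRCm39, so no coordinates were taken from it. Promoter sequences and gene order are RefSeq's on GRCm38.p6. Other pseudocounts, filters, scalings, limma settings, a block for the replicate number, and fits that omit 1 library were tried.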

Additional observations from a re-analysis of the deposited data

How the results depend on the processing

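Between Re and DMSO no member was called under any alternative run: pseudocounts of 0.1 and 0.5 TPM, a minimum of 5 TPM or none, 4 other scalings, limma without trend, robust limma, the replicate block, and each library left out. Leaving out 1 library called 0 to 7 of all genes (2, 1 and 7 without Re replicates 1, 2 and 3, and 3, 6 and 0 without DMSO replicates 1, 2 and 3), and put the member median between 0.029, without DMSO replicate 2, and 0.101, without Re replicate 1. With the replicate block limma called 0 genes and 0 members, with 810 genes at an unadjusted p under 0.05 against 745 without it. Correlations of deviations were 0.163, 0.077 and 0.017 for same-numbered libraries and ran from -0.172 to 0.094 for the others. Re replicates 1 and 2 correlated best with the DMSO replicate of the same number, and Re replicate 3 with DMSO replicate 2. These weak values do not settle whether the labels' numbers pair the libraries.

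Uncalled differences between Re and DMSO changed sign as follows, and the cause was not tested. Median-of-ratios scaling, which moved the median of all genes from 0.105 to 0.0005, gave Mmp14 -0.094, Adamts4 -0.044, Timp2 -0.041, Timp3 -0.067, Adamts1 -0.081, Mmp2 -0.065, Mmp15 -0.014, Adamts7 -0.005 and Adamts6 -0.072. Quantile normalization gave Mmp14 -0.099, Adamts4 -0.051, Timp2 -0.02, Timp3 -0.036, Adamts1 -0.08, Mmp2 -0.053, Mmp15 -0.023, Adamts7 -0.009 and Adamts6 -0.076. Equal sums of listed TPM gave Mmp14 -0.048, Adamts4 -0.005, Timp3 -0.02, Adamts1 -0.039, Mmp2 -0.019 and Adamts6 -0.033. Leaving out mitochondrially encoded genes with equal sums gave Mmp14 -0.072, Adamts4 -0.025, Timp2 -0.019, Timp3 -0.045, Adamts1 -0.061, Mmp2 -0.043 and Adamts6 -0.054. With each library left out in turn the ranges were Adamts1 -0.023 to 0.088, Adamts14 -0.101 to 0.035, Adamts4 -0.046 to 0.12, Adamts6 -0.063 to 0.159, Adamts7 -0.061 to 0.187, Mmp14 -0.064 to 0.101, Mmp19 -0.086 to 0.061, Mmp2 -0.036 to 0.099 and Timp3 -0.068 to 0.128.

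In the GBC pair no member passed the size rule under any alternative run. Adamts7 differed by 1.075 and 1.49 with pseudocounts of 0.5 and 0.1 TPM. Its mean of 1.10 TPM kept it under the minimum of 5 TPM in those runs. The member median was -0.025 after median-of-ratios scaling, and 5 of 12 members were higher. Signs changed there for Adamts2 -0.242, Mmp11 -0.378, Mmp14 -0.015, Mmp2 -0.035, Timp2 -0.299 and Timp3 -0.08, with equal sums for Adamts2 -0.099, Mmp11 -0.195 and Timp2 -0.082, and without mitochondrially encoded genes for Adamts2 -0.071, Mmp11 -0.159 and Timp2 -0.04. Median-of-ratios scaling put the median of all genes there at -0.07, against 0.32 as deposited. The cause was not tested. Without a filter 24 members had a value above 0 in the pair. Unknown depth limits what the values under 1 TPM can show.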

Other observations

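The tables also hold the genes in which the inhibitor genes lie. In GENCODE M21, Timp1, Timp3 and Timp4 each lie inside a synapsin gene on the other strand, in Syn1, Syn3 and Syn2, while Timp2 does not. Syn1 reached 5.80 TPM in the Re table and 0.60 TPM in the GBC pair, Syn3 0.60 and 0.54 TPM, and Syn2 0.51 and 0.05 TPM. Exons overlap for Timp3 with Syn3 and for Timp4 with Syn2, and not for Timp1 with Syn1.

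Adamts16, under the minimum level and chosen after its values were seen, was at 0.15, 0.13 and 0.26 TPM in Re and 0.06, 0.06 and 0 TPM in DMSO. With no filter on low values its difference was 0.18, with an interval of 0.03 to 0.33 and an adjusted p of 0.774 in limma. It was the 1 member of 37 with an unadjusted p under 0.05 in that fit, beside 1226 of 23902 genes.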
